A study of Mus musculus with 4 samples.

Results

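In the m6A peak list of mouse splenic natural killer (NK) cells, 301 genes had 5 or more distinct peaks. Together they held 1711 peaks, out of 20727 distinct peaks in 12351 genes. A peak belonged to the set when the gene identifier given to it by the authors occurred on at least 5 distinct peaks. Fgfr2, with 22 peaks, and Ugt1a6a, with 18, were left out. The genes were thus chosen by a measured value, their number of called peaks, which is described here and not tested. Of the 301 genes, 184 had 5 peaks, 73 had 6, 25 had 7, 6 had 8, 6 had 9, 3 had 10, 2 had 11 and 2 had 12. Just inside the limit, the 920 peaks of genes with 5 peaks had a median fold enrichment of 2.11, and just outside it the 2076 peaks of the 519 genes with 4 peaks had a median of 2.21.

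The RNA came from spleen NK cells of wild-type C57BL/6 mice, which, by the methods of the study, had been expanded in the animals with a hydrodynamically injected plasmid that makes interleukin 15 (pLIVE-IL-15). There were 2 libraries of RNA immunoprecipitated with an antibody against m6A and 2 input libraries, all from plasmid-treated animals of wild-type genotype. The deposited list is 1 set of peaks for the 4 libraries, with 1 fold enrichment and 1 p-value a peak and no value per sample. Depth and replicate error are therefore unknown, every value below is a description of this list, no comparison was tested, and intervals cover counting error only. Intervals over peaks take the peaks as independent, though peaks of a gene can overlap, so they may be too narrow.

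N6-methyladenosine (m6A) is a methyl group on adenosine that the Mettl3 and Mettl14 complex writes into messenger RNA, mostly at a short motif called DRACH (any base but C, then A or G, then A and C, then any base but G). It is densest in long internal exons, around the stop codon and in the 3′ untranslated region (3′ UTR), and proteins that bind it govern decay, translation and splicing of the transcript. Methylated adenosines can lie close together in an exon or far apart along a transcript, and a peak of this assay covers a stretch of RNA and not a single base.

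The short stretches below show what lay under some of these peaks. They surround the first GGAC, a frequent form of the motif, of peaks in 4 genes. Neat1 is the nuclear RNA that builds paraspeckles and the gene with most peaks in 1 exon. G3bp2 encodes a stress granule RNA-binding protein and is the protein-coding gene with most peaks in 1 exon. Klrk1 encodes the activating NK receptor NKG2D, and Bcl2 encodes an anti-apoptotic factor. Each stretch runs 5′ to 3′ along the gene, was read from the GRCm38 genome of RefSeq, spans 24 bases and has the GGAC in capitals. A site that lay in more than 1 overlapping peak is given once.
Neat1 site 1 (chr19:5844553-5844576, minus strand): taaaggtggaGGACaccctgactg
Neat1 site 2 (chr19:5843412-5843435, minus strand): accagatatgGGACttgtgggaga
Neat1 site 3 (chr19:5835299-5835322, minus strand): agaagcatggGGACgcacacagga
G3bp2 site 1 (chr5:92054549-92054572, minus strand): ggagaattaaGGACtgagaaatga
Klrk1 site 1 (chr6:129612712-129612735, minus strand): ggagaaattgGGACtaagaagaag
Klrk1 site 2 (chr6:129612113-129612136, minus strand): gccacagcagGGACcacagggagt
Klrk1 site 3 (chr6:129611198-129611221, minus strand): cacttccagaGGACccaacaccct
Bcl2 site 1 (chr1:106712912-106712935, minus strand): gcgggagtcgGGACttgaagtgcc
Bcl2 site 2 (chr1:106711541-106711564, minus strand): actgctgaatGGACttgcatctag
All but Neat1 site 3, where the base after GGAC is G, complete a DRACH motif. The peaks that held these sites had fold enrichments of 2.36, 1.22 and 20.9 in Neat1, 1.36 in G3bp2, 1.18, 1.23 and 1.74 in Klrk1 and 2.6 and 125 in Bcl2, so the same motif stood under peaks of very unlike height.

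Fold enrichment, the ratio of immunoprecipitate to input in a peak, was low in most member peaks. The median was 2.17 (95% interval 2.05 to 2.25, n = 1711), the interquartile range 1.54 to 5.06, and the extremes 1.04 and 664. A fold of at least 5, called strong here, was reached by 433 member peaks (25.3%), where 34.6% of all peaks in the list reached it. A fold of at least 2 was reached by 921 (53.8%), against 63.9% of all peaks, and a peak-calling p-value under 0.001 by 1022 (59.7%), against 61.5%. The peaks of genes with 2 to 4 peaks had a median fold of 2.23. Within 1 gene the peaks were of unequal height. Both strong and weaker peaks occurred in 208 of the 301 genes, only weaker ones in 92, and only strong ones in 1, the potassium channel gene Kcnq1. The strongest peak of a gene exceeded its weakest by a median of 6.28 times.

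Only 11 genes had 5 or more strong peaks. Among them were Stab1, Cdan1, Ube3a, Gm20498, C130026I21Rik, Hook3, Picalm, Rbm25, Zfhx3 and Kcnq1, some of which were picked out after their values were seen. Many strong values were shared exactly between genes. A fold of 9.48 with a log10 p of -1.69 was listed for 54 member peaks and a fold of 11.4 with a log10 p of -2.09 for 30, and 405 member peaks (23.7%) had the same pair of values as a peak of another gene. The p-value limit was passed by 223 of 433 strong peaks (51.5%, 95% interval 46.8 to 56.2) and by 799 of 1278 weaker ones (62.5%, 59.8 to 65.1). The genomic span had a median of 510 bases in strong peaks and 181 in weaker ones.

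Member genes were long and had many isoforms. The summed length of their merged exons had a median of 6808 bases (95% interval 6176 to 7558), compared with 4693 for genes with 2 to 4 peaks and 3851 for all genes with a peak. They had a median of 11 merged exons (95% interval 9 to 13) and 7 annotated isoforms. The medians were 10 and 5 for genes with 2 to 4 peaks, and 8 and 4 for all genes with a peak. Even so, peaks covered a median of 17.2% of the exonic length of a member gene. The coverage was 6.85% in Neat1, 13.4% in Klrk1, 42.9% in the chemokine receptor gene Ccr3 and 51.4% in Stab1, a scavenger receptor of sinusoidal endothelium and some macrophages. By biotype, 294 members were protein-coding, 5 were long intergenic RNAs, 1 was a processed transcript and 1 an antisense RNA.

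Neighbouring peaks of a member gene lay close together. There were 1410 pairs of neighbours, of which 224 (15.9%, 95% interval 14.1 to 17.9) overlapped, compared with 693 of 6926 in genes with 2 to 4 peaks. Between the 1186 pairs that did not overlap, the genomic gap had a median of 1164.5 bases (interquartile range 267 to 5891). Counted in exonic bases only, the median gap was 567 (95% interval 506 to 628, interquartile range 149 to 1653), against 806 in genes with 2 to 4 peaks. The number of peaks that chose the genes also bears on the room between them, so the difference in gap is no separate result. At most 100 exonic bases separated 222 pairs (18.7%), over 100 and up to 500 separated 335 (28.2%), over 500 and up to 2000 separated 385 (32.5%) and more than 2000 separated 244 (20.6%). A gap of 58 to 60 exonic bases alone accounted for 102 pairs (8.60%), and for 487 of 6233 pairs (7.81%) in genes with 2 to 4 peaks. It forms a step in the plot of spacing. No exonic base lay in the gap of 59 pairs, and these included peaks that were outside the exons of their gene.

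**Figure D1:**
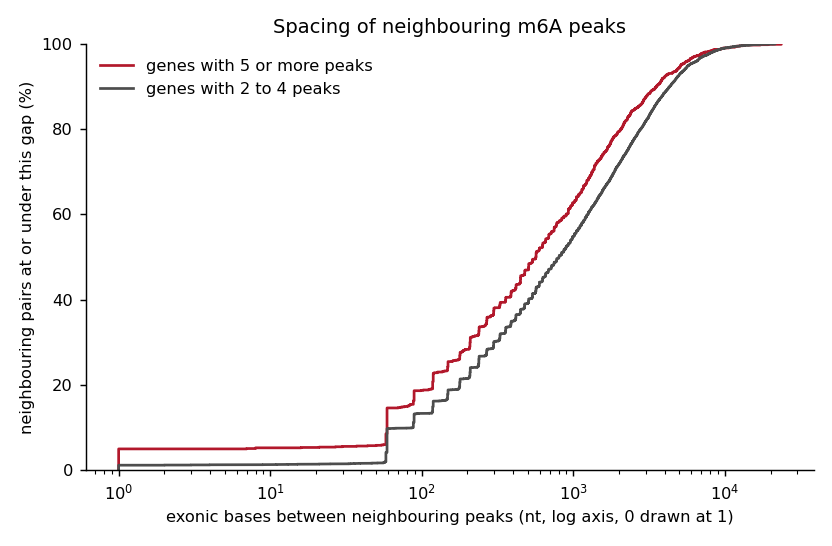
Cumulative share of neighbouring peak pairs (vertical axis, %) against the exonic bases between them (horizontal axis, nt, log scale), for genes with 5 or more peaks (red, 1186 pairs) and genes with 2 to 4 peaks (grey, 6233 pairs). Overlapping pairs are left out, and the red line lies to the left, with a median of 567 against 806.

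Many genes owed part of their count to peaks laid over each other. In all, 402 member peaks (23.5%) overlapped another peak of the same gene, in 119 genes. Merging overlapping spans left 216 genes with 5 or more separate places, 51 with 4, 23 with 3, 8 with 2 and 3 with a single one, namely Ints5, Mettl9 and Rbks. The spans include introns, and the longest were of 19414 bases in Mettl9 and 104977 in Rbks. In each of these 3 genes some overlapping pairs shared no exonic base of the gene. Of the 236 overlapping pairs, 202 (85.6%) shared an exonic base of the gene, and 73 (30.9%) had a span over 1000 bases. One span was nested in the other in 129 pairs (54.7%), and in 68 (28.8%) both ends matched within 20 bases. The folds of these 68 pairs differed by a median ratio of only 1.01, and those of all overlapping pairs by 1.08. In 217 of the 236 pairs (91.9%, 95% interval 87.8 to 94.8) at least one of the peaks also touched an exon of another annotated gene. Of the 402 overlapping peaks, 357 (88.8%) touched such an exon, compared with 215 of the 1309 others (16.4%). What overlapping annotation contributed to these pairs was not tested.

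Chd2, a chromatin remodelling ATPase, shows the pattern at its smallest scale. Among its 9 peaks, 3 of 61 bases each lay within 6 bases of one another in a 5′ exon that overlaps an exon of 1810026B05Rik, and all 3 had a fold of 2.34 and a log10 p of -3.42. Hist2h2aa1, a histone H2A gene, had 6 peaks in its single exon of 586 bases (chr3:96245497-96246082), which formed 2 places with folds of 4.17 in the first and of 3.79 to 4.55 in the second. Histone H2A genes are near copies of each other, so the share of its reads that came from a copy is uncertain. The same holds for Hspa1a, an inducible Hsp70 chaperone with a near-identical partner gene, whose 5 peaks formed 2 places. Galnt2, which starts O-linked glycosylation, had 3 pairs of peaks in the 3′ UTR, with folds of 1.26 and 1.25, 1.22 and 1.23, and 2.91 and 2.91. All 6 also touched an exon of Gm20388, which was itself a member with 5 other peaks, none in its own exons.

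**Figure D2:**
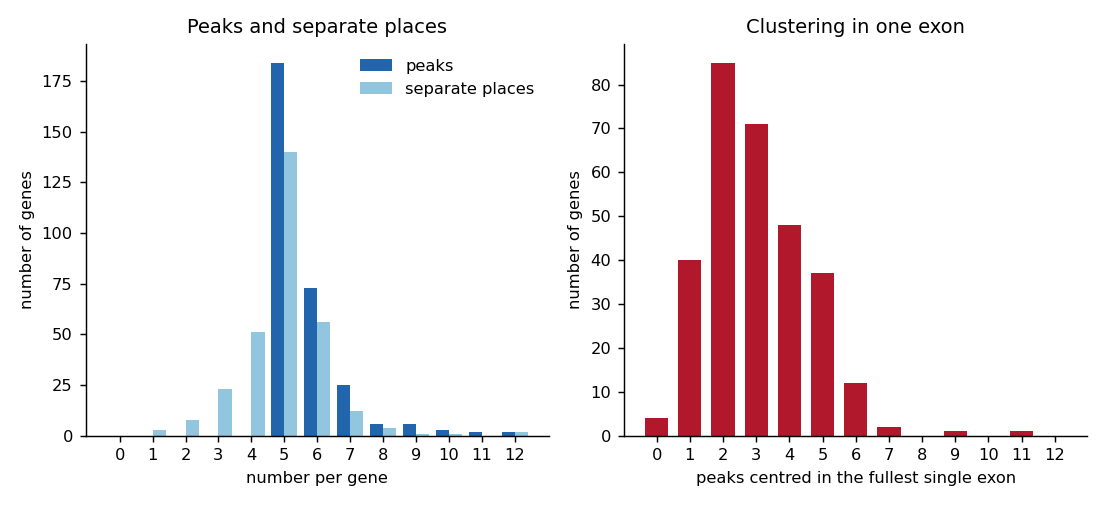
Number of genes (vertical axes) by the number of peaks or of separate places after merging overlapping peaks (left), and by the number of peaks centred in the fullest single exon (right), for the 301 genes. After merging, 216 genes remain at 5 or more, and 172 have at least 3 peaks centred in 1 exon.

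Several peaks of a gene often fell in a single exon. At least 3 peak centres fell in 1 merged exon in 172 of 301 genes (57.1%, 95% interval 51.5 to 62.6), at least 5 in 53 genes, and all peaks of the gene in 31. At the other end, 40 genes had 1 centre in their fullest exon, and 4 had none because all their peaks lay outside their exons. The number of peaks that chose the genes also bears on these counts, and they were not compared with an even spread of peaks along exons. The exons with at least 3 centres, called crowded here, were long, with a median of 2951.5 bases. In 131 of the 172 genes (76.2%) the crowded exon was the last one. Inside it the exonic gap between neighbours had a median of 388 bases, and 125 of 524 neighbouring pairs (23.9%) overlapped.

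Neat1 had the most in 1 exon, with 11 peaks in its only exon of 20771 bases (chr19:5824708-5845478, minus strand). Of these, 10 formed 5 nearly coincident pairs within the 5′ stretch, with folds of 2.2 and 2.22, 2.36 and 2.36, 1.22 and 1.22, 1.37 and 1.37, and 1.41 and 1.26 in order from the 5′ end. The remaining peak, of 840 bases, lay further along and had a fold of 20.9. Neat1 thus had 6 separate places. The printed sites 1 and 2 each lay in both peaks of a pair. The noncoding RNA 5031425E22Rik had 7 of its 8 peaks in 1 exon of 2460 bases, again as 5 places in the whole gene.

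G3bp2 had all 9 peaks in its last exon of 2908 bases (chr5:92052146-92055053, minus strand), 2 centred in the coding sequence and 7 in the 3′ UTR. Their folds ran from 1.19 to 1.72, none was strong, and merging left 5 places. All but the peaks with folds of 1.72 and 1.27 also touched an exon of Gm26582. Klrk1 had 5 peaks and 5 places, all in the 3′ UTR part of its last exon of 2581 bases (chr6:129610323-129612903, minus strand). From the 5′ end the folds of the Klrk1 peaks were 1.18, 1.12, 1.23, 1.15 and 1.74, and their log10 p-values were -23.1, -4.99, -7.76, -6.59 and -34.4. All 5 passed the p-value limit at a low fold. The gaps between them had a median of 134 bases.

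Ccr3, a receptor for eotaxins, had 6 separate peaks in its last exon of 3071 bases, with folds of 1.1 to 1.61. N4bp2l2 had 7 of 9 peaks in an exon of 14768 bases, where the folds were 148, 3.32, 13.3, 3.79, 2.03, 2.71 and 3.79 from the 5′ end, so that a single peak towered over its neighbours. Stk16, a serine/threonine kinase, had 6 of 7 peaks in its last exon of 1793 bases, all 6 touching an exon of Tuba4a.

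**Figure D3:**
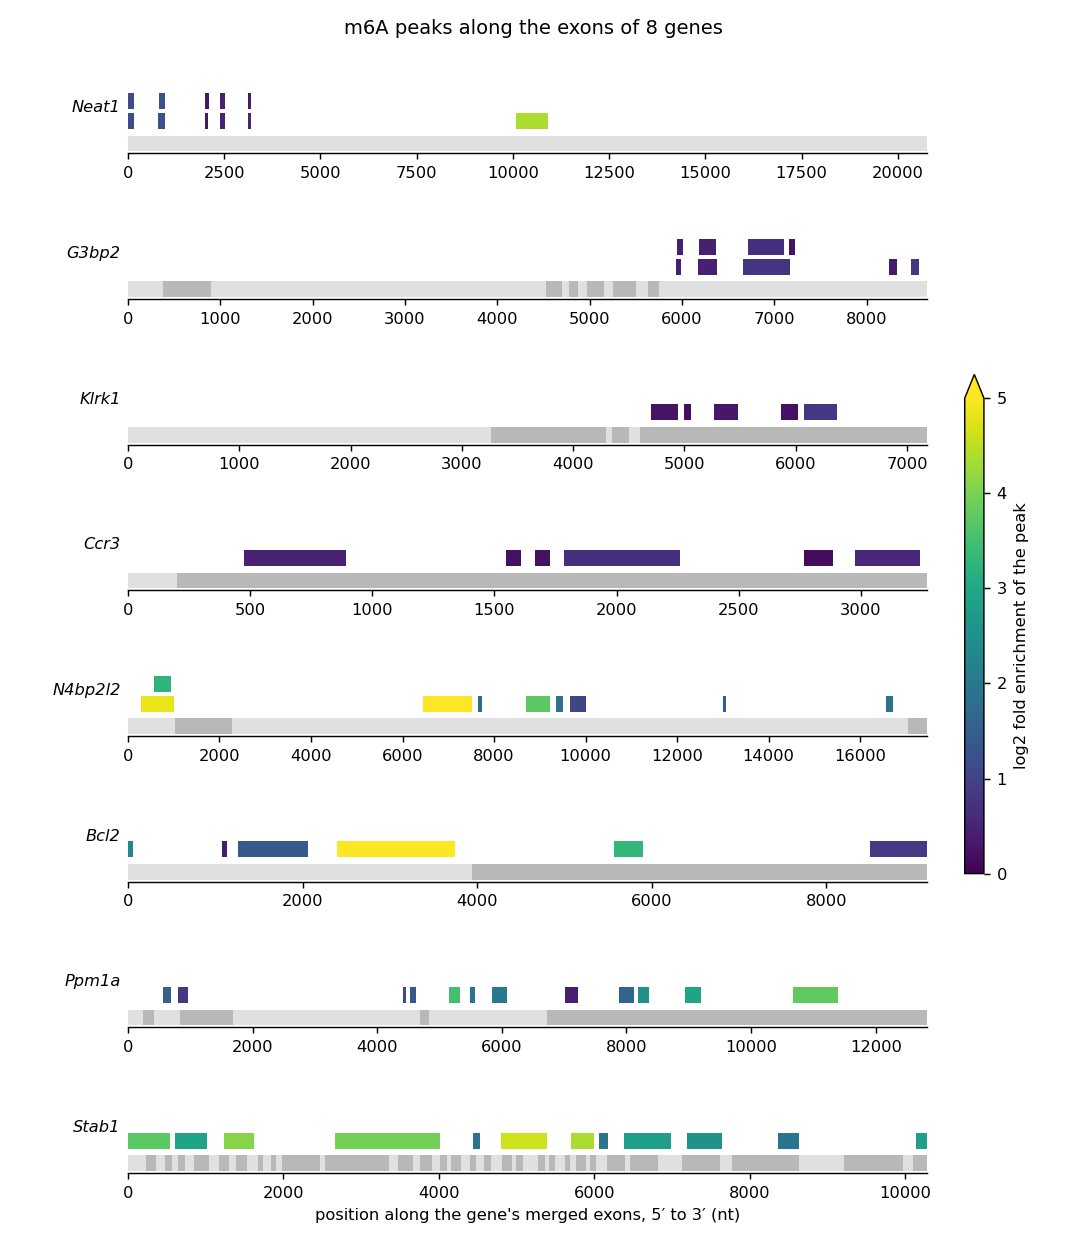
Peaks (coloured bars) along the merged exons (alternating grey) of 8 genes, from the 5′ to the 3′ end on the horizontal axis (nt), with colour giving the log2 fold enrichment. Overlapping peaks are stacked in 2 rows. Peaks of Neat1 fall in 5 pairs and 1 single bar, those of G3bp2 and Klrk1 sit in the last exon, and the 12 of Stab1 spread over the gene.

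Other members spread their peaks along the gene. Stab1 had 12 peaks centred in 12 exons, 11 in the coding sequence and 1 in the 3′ UTR, and their folds ran from 3.79 to 24.7 with 9 of them strong. None overlapped another, and their exonic gaps had a median of 269 bases. Ppm1a, a phosphatase that acts on stress kinases and Smad proteins, also had 12 separate peaks. There 5 lay in the 3′ UTR with folds of 1.34, 3.03, 5.69, 7.59 and 13.8 from the stop codon outward, and 5 lay in exons of non-coding isoforms with folds of 2.19 to 11.4. Morf4l1, a subunit of acetyltransferase complexes, had 9 peaks with at most 2 in 1 exon, and 6 of them were centred in the coding sequence.

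Most member peaks touched an exon of the gene they were assigned to. Some exon of any isoform was overlapped by 1545 of 1711 peaks (90.3%, 95% interval 88.8 to 91.6), compared with 97.1% (96.8 to 97.4) in genes with 2 to 4 peaks and 98.7% in genes with 1. Among protein-coding members 1321 of 1662 peaks (79.5%) overlapped an exon of a coding isoform, and for all peaks the share was 90.1%. An exon of another gene was touched by 572 member peaks (33.4%), against 18.5% of all peaks. The 166 peaks that missed every exon of their gene lay in 75 genes, 150 of them within the bounds of the gene. All but 1 of these 166 overlapped an exon of another gene, and for 68 of the 165 (41.2%) that gene was on the same strand. Whether the libraries kept strand is not given in the sources used here, so the signal cannot be divided between genes on opposite strands.

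Fold enrichment was described by placement. In protein-coding members, the 1321 peaks in exons of coding isoforms had a median fold of 1.93 (95% interval 1.86 to 2.02) and 20.1% were strong. The 183 peaks that touched only exons of non-coding isoforms, such as retained introns, had a median of 5.06 (3.79 to 6.64) and 51.9% were strong. The 157 that lay only in exons of another gene had a median of 3.32 (2.74 to 4.43) and 38.9% were strong. The same order was seen outside the set, where the medians were 2.27, 7.59 and 3.41. A high fold was not always a firm call, since 51.5% of strong member peaks and 62.5% of weaker ones passed the p-value limit. The p-values were not divided by placement. The highest fold of all members, 664, belonged to a peak assigned to Strbp, a spermatid RNA-binding protein, that touched none of its exons.

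**Figure D4:**
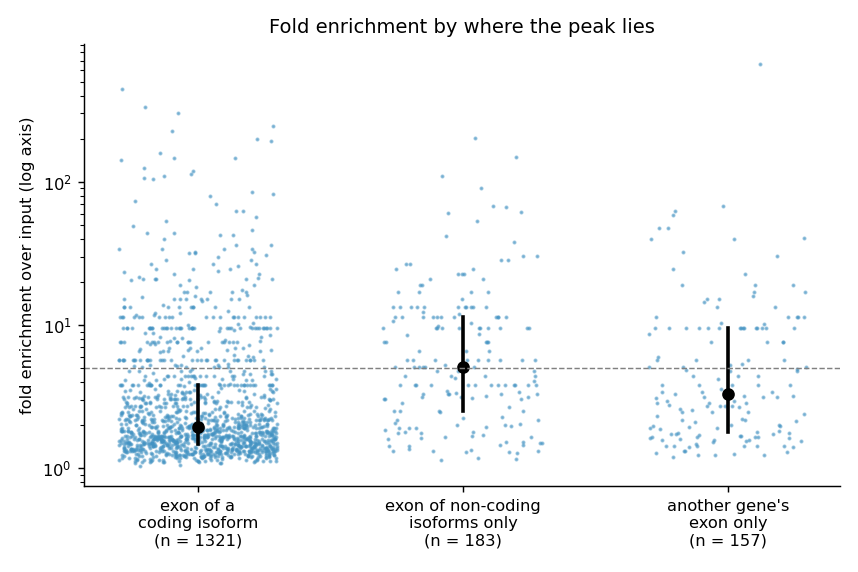
Fold enrichment over input (vertical axis, log scale) of each peak of the protein-coding members, by where it lies. Small points are peaks, scattered sideways at random, black dots are medians (1.93, 5.06 and 3.32), black bars the interquartile range, and the dashed line a fold of 5.

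In 18 genes at least 4 peaks lay outside the gene's own exons, and in 4 genes, Ccdc106, Epo, Gm20388 and Gm28198, every peak did. Nf1, a negative regulator of Ras, had 7 of 11 peaks in exons of Evi2 and Evi2a, genes nested in one of its introns, with folds of 1.58 to 5.06. The 4 peaks in exons of Nf1 itself had folds of 3.03, 9.48, 19 and 8.85, all in the coding sequence. Kcnq1 had 4 of 5 peaks only in exons of Kcnq1ot1, the long imprinted RNA transcribed across it from the other strand, with folds of 62.6, 40.8, 9.48 and 47.4. The remaining peak, which touched a Kcnq1 exon and Kcnq1ot1 alike, had a fold of 7.59. Ube3a, an imprinted ubiquitin ligase, had 5 of 10 peaks in exons of 9330162G02Rik and Gm44830, with folds of 9.48 to 32.2.

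Epo, the erythropoietin gene, was a member through 5 peaks in exons of Gigyf1, Gnb2 and Pop7, with folds of 1.24 to 2.7, and none touched an exon of Epo. Gbp9, an interferon-inducible GTPase, had 4 of 5 peaks in exons of its relative Gbp4. Chkb, a choline kinase, had 4 of 6 in Cpt1b, Txndc12 had 4 of 6 in Kti12, and Spef1 had 4 of 5 in the centromere protein gene Cenpb. Ints5, an Integrator subunit, had 5 of 6 in 1810009A15Rik and Lbhd1. Camta1, Atp5o and Dmtf1 had 4 of 6, 4 of 6 and 3 of 5 peaks outside their exons, and in these genes, as in Ccdc106 and Epo, the median gap held no exonic base of the gene. Counting only peaks in the gene's own exons, 254 genes kept 5 or more, and 180 kept 5 or more once overlapping peaks were also merged.

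**Figure D5:**
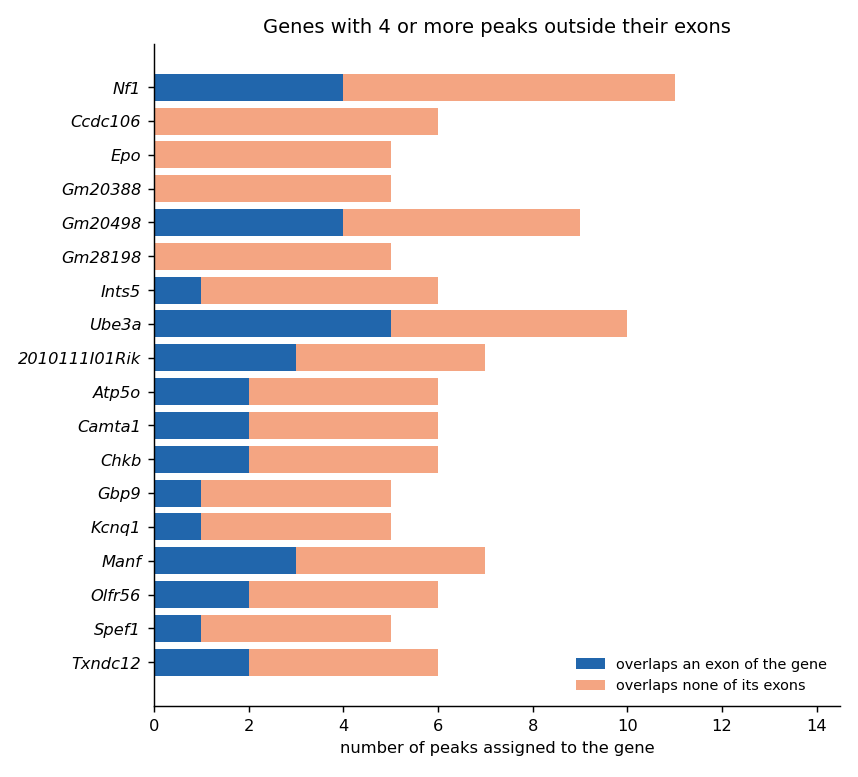
Number of peaks (horizontal axis) of the 18 genes with at least 4 peaks outside their own exons, split into peaks that overlap an exon of the gene (blue) and peaks that overlap none (orange). Nf1 has 7 of 11 outside, and Ccdc106, Epo, Gm20388 and Gm28198 have none inside.

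On the longest coding transcript, 1229 member peaks could be placed by the centre of their exonic part. The 3′ UTR held 51.7% of them (95% interval 49.0 to 54.5), the coding sequence 37.0% and the 5′ UTR 11.2%, compared with 56.6%, 33.5% and 9.92% for all placed peaks. Within 200 bases of the stop codon lay 17.3%, against 22.3% of all. Median folds were 1.82 in the 3′ UTR, 1.93 in the coding sequence and 3.03 (2.41 to 3.56) in the 5′ UTR. The DRACH motif occurred 19.5 times per kb of exonic peak sequence in members, 20.1 times in the exons of the same genes outside their peaks and 20.1 times in all peaks. GGAC occurred 3.55, 3.41 and 3.59 times per kb in the same order. At least one GGAC lay in 52.0% of the 1545 exonic member peaks and in 58.6% of all exonic peaks, which were longer, with a median of 240 exonic bases against 181. Searches covered the strand of the gene only, and a GGAC followed by any base but G also counts as DRACH.

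The functions of the members were broad. A role could be given to 240 of the 301 genes, and the largest groups were transcription factors and cofactors (35 genes, 187 peaks) and RNA-binding, splicing and decay factors (31 genes, 175 peaks). Among the former, Bach2 and Yy1 had 6 and 7 separate peaks, and Zfhx3 had 6 with folds of 3.25 to 22.8. Among the latter, Zfp36, which destabilises cytokine messages, had 6 in 1 exon with folds of 1.05 to 13.3. The signalling group had 23 genes with 144 peaks, and the groups of chromatin, cytoskeleton and ubiquitin genes had 21 each. Median folds of the groups ran from 1.905 in glycosylation and folding genes to 3.41 in the 8 genes of cell cycle, survival and DNA repair. Translation genes had all 71 peaks in their own exons and 14.1% strong ones, and their peaks were placed in the coding sequence in 47.7% of cases. In membrane traffic and transporter genes the 3′ UTR held 73.5%.

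Immune receptors, ligands and adhesion molecules made up 19 genes with 113 peaks, a median fold of 1.92 and 19.5% strong peaks. Besides Klrk1 they included Klrc2, a CD94-paired NK receptor, whose 5 peaks had folds of 1.13, 1.74, 1.36, 1.81 and 2.53 from the 5′ end and reached from the 5′ to the 3′ UTR. Cd247, the zeta signalling chain of NK receptors, had 6 peaks with folds of 1.52 to 4.74 in 4 places. Tgfbr2, a receptor for an inhibitor of NK cells, had 5 with folds of 1.28 to 106. The NK effector list contributed 2 members of 37 genes with a peak, Klrk1 and Klrc2, or 5.41%, where 2.44% of all genes with a peak were members. These small counts allow no more than a description.

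Of the 48 genes of interleukin 15, MAPK and PI3K signalling with a peak, 3 were members (6.25%, against 2.44% of all genes with a peak). Bcl2 had 6 peaks, with folds of 5.06, 1.26 and 2.6 in the 5′ part, 125 in the 1347-base peak that holds site 2, and 9.75 and 1.82 in the last exon. The peaks with folds of 5.06 and 1.26 had log10 p-values of -2.59 and -2.48 and did not pass the p-value limit. The 1347-base peak had no place on the longest coding transcript. Pik3r1, the regulatory subunit of PI3K, had 7 peaks, 4 of them in the 3′ UTR with folds of 1.34, 1.25, 3.12 and 6.74 outward from the stop codon. Map2k2, the kinase MEK2, had 5 peaks with folds of 2.26, 1.76, 1.74, 1.79 and 23.4 from the 5′ end. Both Bcl2 and Pik3r1 had at least 4 centres in 1 exon, while Map2k2 had 2.

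Chromatin regulators gave the highest share of the 8 lists, with 8 members of 68 genes with a peak (11.8%, against 2.44% of all). These were Chd2, Chd3, Chd9, Ep300, Kdm6a, Nsd2, Nsd3 and Setd1a. Their folds were widest in Nsd3, a histone methyltransferase, at 1.36 to 226, and narrowest in Setd1a, an H3K4 methyltransferase, at 1.68 to 1.81. The Setd1a peaks included nearly coincident pairs, with folds of 1.78 and 1.81 and of 1.7 and 1.68, each pair touching an exon of another gene. Chd9 had peaks with folds of 3.16 and 3.41 that lay only in exons of Gm6658. No Chd9 peak passed the p-value limit, with log10 p-values from -2.36 to -1.66. Ep300, an acetyltransferase, had folds of 4.74 and 9.48 in the 5′ UTR and of 1.72 and 2.33 in the 3′ UTR. Giant structural and adhesion genes had 3 members of 29 (10.3%), Dnah8, Lrp1 and Macf1. Ubiquitin genes had 3 of 36 (8.33%), Birc6, Huwe1 and Rnf213, and phosphatases 2 of 27 (7.41%), Ppm1a and Ppp4c. The m6A machinery had 1 of 20 (5%), the reader Hnrnpa2b1, with 5 peaks at folds of 1.37 to 2.01. Of the clustered genes with variable first exons, 2 had a peak and 0 were members. In every list the genes had a median of at least 2 peaks, against 1 over all genes with a peak. Of all annotated genes with a peak 82.5% were protein-coding, and of those with 1 peak 73.6%. Exonic length had a median of 10633 bases in the 21 members with a chromatin role, against 6808 in all members. What gene type and length contributed to the shares of the lists was not tested. In Huwe1 and Dnah8, 4 and 5 peaks were centred in the coding sequence and 3 of 5 were strong in each.

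The labelled cell type could be checked only by which genes had a peak. All 9 NK markers had one, as did 2 of 4 T cell markers (not Cd8a or Cd4), 1 of 3 B cell markers and 3 of 3 myeloid markers. The list holds no expression level, so the part of other cells in peaks of genes such as Stab1, Ccr3, Cd93 and C3ar1 was not tested.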

How the data were processed

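The authors aligned MeRIP-seq reads with HISAT2 to GRCm38, called peaks with exomePeak and assigned genes with ChIPseeker. How the replicates were combined is not given in the sources used here. The deposited fold enrichment is a ratio of immunoprecipitate to input, and the deposited significance is a score, the log10 of an unadjusted p-value, at most -1.3. Of 20751 rows, 24 exact repeats were dropped. Spans and positions are as deposited, starts counted from 1, introns included. There were 0 columns per sample, so no library depth is known.

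Gene models were GENCODE vM21, with the exons of all isoforms merged, and sequence was the RefSeq GRCm38 genome (Python 3.11.15, pandas 2.3.3). Of the gene identifiers in the list 19 were not in the annotation, none a member's. Gaps are bases between neighbouring spans. A peak was centred on its exonic part. Shares have 95% Wilson intervals and medians exact binomial ones. The gap and interval code was tested on simulated data.

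The members, gene lists and roles were chosen with earlier results of these data known, the roles from general knowledge. Named genes are the 15 with most peaks, up to 5 each with most peaks in 1 exon, the smallest exonic gap or most peaks outside their exons, and list members. Others were chosen after their values were seen. Some genes that meet these rules are not reported here.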

Additional observations from a re-analysis of the deposited data

How the results depend on the processing

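Over 8 results, 25 alternatives were run. A count of genes was taken as kept within 1.5 times the first count, and any other value within its 95% interval, and by this 10 values were kept and 15 moved. The 301 genes became 303 with repeated rows counted, 254 with only peaks in own exons and 216 with overlapping peaks merged, which are lower or higher counts inside that ratio. They became 76 with peaks at p under 0.001, 71 at a fold of at least 2, 11 at a fold of at least 5, 820 with a limit of 4 peaks, 117 with a limit of 6 and 180 with overlapping peaks merged and only peaks in own exons, an alternative chosen after seeing the data. With peaks at p under 0.001 the median genomic gap became 1383 bases and the median fold 1.9. The share of genes with 3 peaks in 1 exon became 28.6%, and leaving out peaks of the 301 genes can only lower it. In exonic bases the gap was 567. On the exons of the longest coding transcript the 1-exon share was 45.8%. Own-exon overlap fell to 77.2% with exons of coding isoforms only and 73.2% when most of the span had to be exonic. Centring on the genomic span put 67.3% of 879 peaks in the 3′ UTR, and GGAC in place of DRACH gave 3.55 sites per kb. A changed limit on peaks, fold or p-value alters the count of genes by definition. Counting the gap in exonic bases can only shorten it, a narrower exon rule can only lower the overlap, and GGAC is a different motif. The cause of the remaining moves was not tested.

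No paired analysis was possible because the list has no value per sample. For the same reason no library was left out in turn. Depth, replicate spread and the expression of each gene are unknown, and intervals cover counting error only.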
